A study of Mus musculus with 11 samples.

Results

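The genes described here are 36 genes of G2 and mitosis, the last steps of the cell cycle, in which a cell checks its copied DNA and then divides. They were given as a list of symbols and found through the platform annotation of an Affymetrix mouse expression array, taking for each the brightest probe set with that gene as its only symbol. This matched 35 of the 36 among 18193 measured genes, and Ccnb1 is not analysed here. The arrays measured total RNA of colon from adult C57BL/6 mice in 3 groups. Colon taken before imatinib served as control (n = 3), and colon was also taken 3 h (n = 4) and 12 h (n = 4) after imatinib was given. Dose and route are not stated in the labels. Imatinib is a tyrosine kinase inhibitor that acts on Abl, Kit and the PDGF receptors, and the series belongs to work on EphB receptors and Abl in intestinal tumours. No mice given vehicle, and no untreated mice taken at the later hours, were analysed here, so the drug, its delivery and the hour of harvest cannot be told apart. Whether replicates are different mice is not said in the labels, so the p-values reflect only how much these samples vary, which may be technical. With 3 or 4 arrays a group, precision is limited by their number. Transcripts of pancreatic acinar cells were high on 5 arrays (control replicate 1, 3 h replicate 3 and 12 h replicates 1, 3 and 4), and values without these arrays are given with the other cell types.

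In the colon, cell division takes place mainly in the lower part of the crypts, where stem cells and their early progeny divide before the cells differentiate and move towards the surface. Cells entering mitosis are driven by the kinase Cdk1 with A- and B-type cyclins. Their chromosomes attach to the spindle through kinetochores, a checkpoint holds the cell until every chromosome is attached, and the anaphase promoting complex (APC/C) then destroys the cyclins. Many of these genes are transcribed together late in the cycle. Their promoters often carry a CHR element (cell cycle genes homology region), which MuvB-containing complexes bind, and CCAAT boxes, which the factor NF-Y binds. In whole tissue, fewer dividing cells and less of these RNAs per cell cannot be told apart.

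The promoter windows are shown because these elements were frequent among the members as a whole, whether or not they fell. RefSeq windows on GRCm38.p6, from 250 bases before to 50 bases after the annotated start, were found for 30 of the 35 measured members. A CHR match was counted as TTTGAA or TTCGAA on either strand and a CCAAT match as CCAAT on either strand, and no match of one motif overlaps one of the other in the sequences printed. A CHR match lay between 60 bases before and 50 bases after the start in 23 of the 30 windows (76.7%), against 5.86% of 27025 promoters in the table. Anywhere in the window, a CHR match was present in 25 of 30 (83.3%, against 19.4% of all). A CCAAT match anywhere in the window was present in 23 of 30 (76.7%, against 37.9% of all), and 16 of 30 had at least 2 (53.3%, against 12.2%). Both a CHR match near the start and a CCAAT match were found in 21 of 30 (70%, against 2.55%). Of 50 windows of further G2 and mitosis genes outside the list, 24 had a CHR match near the start (48%) and 35 a CCAAT match (70%). At least 2 CCAAT matches were found in 22 of these 50 (44%), and both motifs in 18 (36%). Among S phase genes, which peak earlier in the cycle, 2 of 29 windows had a CHR match near the start (6.9%). A CHR match anywhere in the window was present in 30 of the 50 (60%) and 6 of the 29 (20.7%). A CCAAT match was present in 16 of those 29 (55.2%), and at least 2 in 10 (34.5%).

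The windows of 4 members follow, those with the smallest p at 12 h among members that fell and had a CHR match in the window. The match was thus a condition of the choice. The windows are written 5′ to 3′ on the strand of the gene, with CHR and CCAAT matches of either strand in capitals. They lie at chr2:118597961-118598260 on the plus strand for Bub1b and, on the minus strand, at chr11:40733388-40733687 for Hmmr, chr7:135716330-135716629 for Mki67 and chr9:22389157-22389456 for Anln.
Bub1b: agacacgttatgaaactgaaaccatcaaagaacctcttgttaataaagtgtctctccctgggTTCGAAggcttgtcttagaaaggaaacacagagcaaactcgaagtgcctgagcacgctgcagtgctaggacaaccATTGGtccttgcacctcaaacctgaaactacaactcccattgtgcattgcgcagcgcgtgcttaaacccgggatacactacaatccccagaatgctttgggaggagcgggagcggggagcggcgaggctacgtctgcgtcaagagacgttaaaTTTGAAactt
Hmmr: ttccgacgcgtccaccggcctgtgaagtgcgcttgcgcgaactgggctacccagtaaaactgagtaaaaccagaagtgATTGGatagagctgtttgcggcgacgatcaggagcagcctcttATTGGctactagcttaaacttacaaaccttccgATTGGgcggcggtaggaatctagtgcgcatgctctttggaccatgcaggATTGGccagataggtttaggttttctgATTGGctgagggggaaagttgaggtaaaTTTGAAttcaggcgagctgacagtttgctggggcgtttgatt
Mki67: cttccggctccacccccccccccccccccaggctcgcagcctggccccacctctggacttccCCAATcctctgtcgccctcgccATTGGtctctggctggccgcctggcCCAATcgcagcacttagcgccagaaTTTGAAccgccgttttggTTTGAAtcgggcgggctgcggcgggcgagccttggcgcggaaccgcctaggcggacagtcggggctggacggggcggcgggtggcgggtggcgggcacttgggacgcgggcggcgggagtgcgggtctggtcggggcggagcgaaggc
Anln: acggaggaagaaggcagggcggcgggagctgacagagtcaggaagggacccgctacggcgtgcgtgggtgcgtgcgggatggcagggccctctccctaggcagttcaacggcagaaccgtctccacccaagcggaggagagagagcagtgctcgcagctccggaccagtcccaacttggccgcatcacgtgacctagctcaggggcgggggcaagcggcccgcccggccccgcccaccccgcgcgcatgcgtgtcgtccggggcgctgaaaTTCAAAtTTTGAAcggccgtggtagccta
The Hmmr window has 5 CCAAT matches upstream of 1 CHR match, whose first base is at position 9 counted from 1 at the start. In Anln 2 CHR matches on opposite strands stand 1 base apart, at positions 22 and 29, with no CCAAT match. The CHR matches of Mki67 lie further upstream, at −116 and −98. Shorter stretches around the CHR match nearest the start are given for Cenpf (chr1:189688059-189688144) and Cdk1 (chr10:69352902-69352987), both on the minus strand, which also fell at 12 h and were added after their values were seen.
Cenpf: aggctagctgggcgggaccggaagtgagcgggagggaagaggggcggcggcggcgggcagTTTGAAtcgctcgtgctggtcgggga
Cdk1: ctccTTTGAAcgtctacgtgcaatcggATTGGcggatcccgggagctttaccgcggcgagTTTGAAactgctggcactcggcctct
Nusap1, which also fell at 12 h, had no match of either kind in its window. The median log2 change at 12 h was −0.65 over the 23 members with a CHR match near the start and −0.84 over the 7 without one. A match describes the letters of the window and does not show that a factor binds there.

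**Figure D1:**
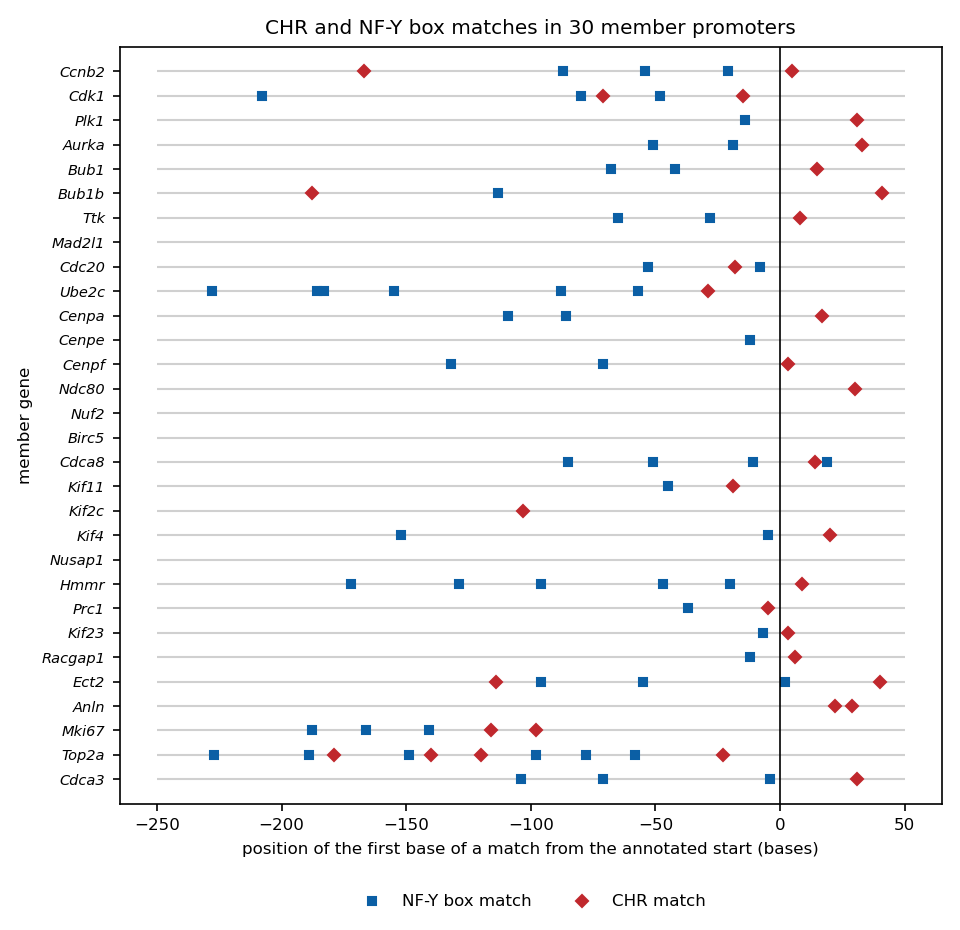
Positions of CHR matches (red diamonds) and NF-Y box matches (CCAAT, blue squares) in the promoter windows of 30 member genes, in bases from the annotated start (vertical line). In 23 of 30 windows a CHR match lies close to the start, and where both motifs occur most of the NF-Y boxes stand upstream of it.

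At 12 h after imatinib, 7 of the 35 mitotic genes fell, namely Mki67, Bub1b, Hmmr, Anln, Cdk1, Nusap1 and Cenpf (limma, Benjamini-Hochberg adjusted p under 0.05 over all 18193 genes), and none rose. Over all genes 0.846% were called lower, 0.786% higher and 1.63% in either direction, against 20% of the members lower. The median log2 change of the members was −0.71, a ratio of 0.611, where the median of all genes was −0.01. All 35 members had a log2 change below 0, from −1.10 (Cdk1) to −0.25 (Foxm1), as did 51.4% of all genes. The arrays of the 2 groups did not overlap for 20 members, 57.1%, against 6.99% of all genes, and no member was higher without overlap (6.05% of all genes were). At an unadjusted limma p under 0.05, 30 members were lower, against 8.71% of all genes. The count moved with single arrays, and no member was called without control replicate 1, control replicate 2 or 12 h replicate 3. Without 12 h replicate 2 the count was 1, without control replicate 3 it was 2, without 3 h replicate 1 or 12 h replicate 4 it was 3, without 3 h replicate 2 it was 4, and without 12 h replicate 1 it was 13. With an offset of 1 in place of 16, or with the 3 h arrays left out of the fit, no member was called at 12 h, and 0.445% and 0.341% of all genes were, in either direction.

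At 3 h, the spindle checkpoint gene Bub1b and the spindle gene Hmmr fell, 2 of 35 (5.71%), where 1.1% of all genes were called lower, and no member rose (1.43% of all genes did, 2.54% passing in either direction). The median log2 change was −0.46 (ratio 0.727) against −0.02 for all genes. The arrays did not overlap for 11 members (31.4%, against 8.56% of all genes), and none was higher without overlap (6.77% of all genes were). At an unadjusted limma p under 0.05, 13 members were lower, against 8.54% of all genes. Log2 changes lay between −0.78 (Hmmr) and −0.02 (Kif4), all below 0, as were those of 54.2% of all genes. Kif4 was at 0.00 after arrays were set to equal medians. Over the 22 alternative settings, 12 of 769 values at 3 h were above 0, from Aurka, Cdca8, Kif23 and Kif4. The count fell to 0 without control replicate 1 or 2 or 3 h replicate 2 or 3, and to 1 without control replicate 3 or 3 h replicate 1 or 4, and was 3 without 12 h replicate 1. With an offset of 1 it was 0, and 1.26% of all genes were called in either direction. Both comparisons use the same 3 control arrays, so the 2 sets of changes are not independent.

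**Figure D2:**
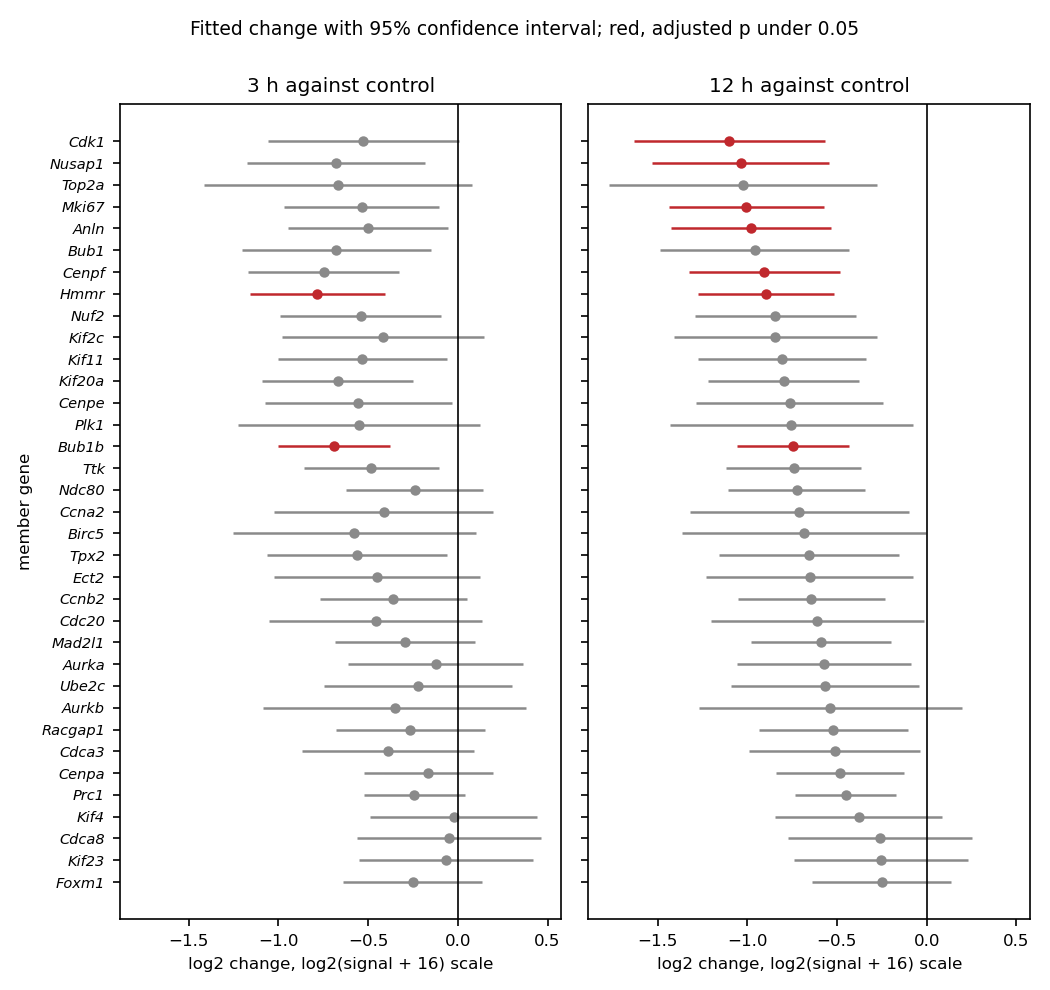
Fitted log2 change of each of the 35 members with its 95% confidence interval, for 3 h against control (left) and 12 h against control (right), with red for adjusted p under 0.05. The median lies at −0.46 at 3 h and −0.71 at 12 h, and the 7 red genes at 12 h lie between −1.10 and −0.75.

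Signals below are linear array units, scaled by the submitters to a common trimmed mean, and fold changes were fitted on log2(signal + 16), which understates the change of dim genes. Cdk1, the kinase that starts mitosis, had signals of 305.1, 343.9 and 403.3 in control, 273, 220.3, 162 and 321.5 at 3 h, and 240.5, 157.5, 115.4 and 127.4 at 12 h. Every 12 h array was below every control array, while 1 of the 3 h arrays lay within the control range. Cdk1 fell at 12 h, with a change of −1.10 ± 0.24 (SE) on the log2 scale, the lowest of the list (limma adjusted p = 0.0474), and at 3 h the change was −0.53 ± 0.24 (SE) with a limma adjusted p of 0.339. The 12 h call was lost after an equal-median shift (limma adjusted p = 0.0548) and without any 1 of 8 arrays (all but 3 h replicates 3 and 4 and 12 h replicate 1; adjusted p up to 0.146). Neither cyclin passed the test. Ccna2, which acts from S phase into early mitosis, went from 358 ± 51.8 (SD, n = 3) to 224 ± 98.4 (SD, n = 4) at 12 h, and its change of −0.71 ± 0.28 (SE) on the log2 scale had a limma adjusted p of 0.239. Its second probe set had a log2 change of −0.97 at 12 h. Ccnb2, a B-type cyclin, went from 255 ± 20.4 (SD, n = 3) to 160 ± 32.5 (SD, n = 4), and its 12 h arrays did not overlap the controls (limma adjusted p = 0.115).

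Foxm1, the transcription factor that activates many of these genes in G2, had signals of 139, 101.1 and 99.1 in control, 86, 87, 83.8 and 110.5 at 3 h, and 124.6, 75, 70.3 and 104.5 at 12 h. On its brightest probe set, used here, the groups overlapped at both times. Its log2 changes were −0.25 at 3 h and −0.25 at 12 h, with a 95% confidence interval of −0.64 to 0.14 at 12 h. Plk1, the kinase that acts on centrosomes, kinetochores and cytokinesis, went from 132 ± 22.1 (SD, n = 3) to 76.0 ± 37.0 (SD, n = 4) at 12 h (log2 change −0.76 ± 0.31 SE, limma adjusted p = 0.26). Aurka, a kinase of the spindle poles, had a log2 change of −0.12 at 3 h and −0.57 at 12 h, neither of which passed the test.

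Bub1b, which encodes the checkpoint protein BubR1, fell at both times. Its signals were 107.5, 96.1 and 87.9 in control, 61.3, 48.4, 54.1 and 52.5 at 3 h, and 73, 45.8, 48.8 and 41.5 at 12 h. All 8 arrays after imatinib lay below all controls. The log2 change was −0.69 ± 0.14 (SE; limma adjusted p = 0.0275) at 3 h and −0.75 ± 0.14 (SE; limma adjusted p = 0.0271) at 12 h. The 3 h call ended without control replicate 1 or 2 or 3 h replicate 2, 3 or 4 (limma adjusted p up to 0.127), and the 12 h call without control replicate 1 or 2 or 12 h replicate 2 or 3 (up to 0.115). The dimmer probe sets of Bub1b had log2 changes of −0.69 and −0.22 at 3 h and −0.71 and −0.18 at 12 h. With the mean of all its probe sets both calls were lost (limma adjusted p = 0.146 and 0.14). The checkpoint kinase Bub1 had a larger change at 12 h, from 110 ± 18.9 (SD, n = 3) to 50.5 ± 18.2 (SD, n = 4), but also a larger error (log2 change −0.96 ± 0.24 SE, limma adjusted p = 0.0735). Ttk, the kinase that starts checkpoint signalling, went from 59.5 ± 6.72 (SD, n = 3) to 29.9 ± 10.6 (SD, n = 4; limma adjusted p = 0.055). Mad2l1, the checkpoint inhibitor of Cdc20, had a log2 change of −0.59 at 12 h. For Bub1, Ttk and Mad2l1 every array after imatinib was below every control. The APC/C activator Cdc20 and the ubiquitin conjugating enzyme Ube2c, which works with the APC/C, had log2 changes of −0.61 and −0.57 at 12 h, and their groups overlapped.

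All 5 genes of the centromere and kinetochore had 12 h arrays below every control, as did 20 of the 35 members and 6.99% of all genes. Cenpf, a large kinetochore protein made in G2, had signals of 133.2, 149.5 and 112.6 in control, 82.6, 57, 63.1 and 87.1 at 3 h, and 94.2, 64, 54.4 and 45.2 at 12 h. It fell at 12 h (log2 change −0.90 ± 0.19 SE, limma adjusted p = 0.0396) and had −0.75 ± 0.19 (SE) at 3 h with a limma adjusted p of 0.0653. The 12 h call was lost without any 1 of 9 arrays (all but 3 h replicate 2 and 12 h replicate 1; adjusted p up to 0.158). It was also lost with the mean of all Cenpf probe sets (log2 change −0.55, limma adjusted p = 0.145). The dimmer probe sets of Cenpf had log2 changes of −0.31 and −0.43 at 12 h. Nuf2 and Ndc80 are partners in the complex that binds microtubules. Nuf2 went from 94.6 ± 16.9 (SD, n = 3) to 46.2 ± 14.5 (SD, n = 4; log2 change −0.84 ± 0.21 SE, limma adjusted p = 0.0635). Ndc80, the dimmest member, went from 38.5 ± 6.52 (SD, n = 3) to 17.3 ± 6.43 (SD, n = 4), close to the offset of 16 (limma adjusted p = 0.0623). On the log2 scale the difference was −0.76 ± 0.24 (SE) for the kinesin Cenpe and −0.48 ± 0.16 (SE) for the centromeric histone Cenpa, and neither passed the test.

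The chromosomal passengers, which correct faulty attachments and act in cytokinesis, did not pass the test at either time. Birc5 (survivin) had a log2 change of −0.68 ± 0.31 (SE) at 12 h, the kinase Aurkb −0.54 ± 0.34 (SE) and Cdca8 (borealin) −0.26 ± 0.24 (SE). Their groups overlapped. Aurkb had the widest spread of any member at 12 h, with signals of 109.1, 53, 33.9 and 25.9, and the first of these was above all controls. The dimmer probe sets of Cdca8 had log2 changes of −0.61 and −0.55 at 12 h.

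Of 7 motor and spindle genes, Hmmr and Nusap1 fell at 12 h. Hmmr, which organises spindle poles, had signals of 150.4, 172.1 and 186.3 in control, 92.9, 100.5, 66.3 and 111.9 at 3 h, and 98.1, 99.9, 80 and 61 at 12 h. All arrays after imatinib were below all controls. The log2 change was −0.78 ± 0.17 (SE; limma adjusted p = 0.0361) at 3 h and −0.90 ± 0.17 (SE; limma adjusted p = 0.0274) at 12 h. The 3 h call ended without any 1 of the 3 control arrays or 3 h replicate 1, 2 or 3 (limma adjusted p up to 0.118), and the 12 h call without any 1 of the controls or 12 h replicate 3 (up to 0.105). Nusap1, a microtubule bundling protein, had signals of 206, 265.9 and 286.7 in control, 146.8, 124.8, 120.4 and 230.7 at 3 h, and 165.1, 116.2, 95.9 and 90.2 at 12 h. It fell at 12 h without overlap (log2 change −1.04 ± 0.23 SE, limma adjusted p = 0.0445), a call lost without any 1 of 9 arrays (all but 3 h replicate 4 and 12 h replicate 1; up to 0.157), and 1 of its 3 h arrays was within the control range. The call was also lost with the mean of all Nusap1 probe sets (log2 change −0.47, limma adjusted p = 0.258). The motor Kif11, which separates spindle poles, went from 111 ± 13.9 (SD, n = 3) to 56.9 ± 9.24 (SD, n = 4; limma adjusted p = 0.0895). Kif2c, which depolymerises microtubules at centromeres, had a log2 change of −0.84 ± 0.26 (SE), Tpx2 of −0.66 ± 0.23 (SE) and the midzone bundler Prc1 of −0.45 ± 0.13 (SE). Kif4, a chromosome motor, had −0.38 ± 0.21 (SE), and none of these 4 passed the test.

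Among 5 cytokinesis genes Anln, which encodes the contractile ring scaffold anillin, fell at 12 h. Its signals were 116.1, 150.1 and 153.3 in control, 92, 80, 69.3 and 145.7 at 3 h, and 74.8, 74.6, 49.8 and 54.7 at 12 h. The 12 h arrays lay below all controls and below 3 h replicates 1 and 2, whereas 3 h replicate 4 was within the control range. The log2 change was −0.98 ± 0.20 (SE; limma adjusted p = 0.0377) at 12 h, a call lost without any 1 of 8 arrays (all but 3 h replicates 3 and 4 and 12 h replicate 1; up to 0.143). Kif20a, a midzone kinesin, was lower without overlap at both times, at 60.7 ± 4.37 (SD, n = 3) in control, 33.0 ± 11.1 (SD, n = 4) at 3 h and 29.0 ± 10.8 (SD, n = 4) at 12 h. It did not pass the test (limma adjusted p = 0.0984 and 0.0625). Kif23 and Racgap1 form the centralspindlin complex, and Ect2 activates RhoA there. At 12 h their log2 changes were −0.25 ± 0.22 (SE) for Kif23, −0.52 ± 0.19 (SE) for Racgap1 and −0.65 ± 0.26 (SE) for Ect2, and none passed the test.

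Mki67, the proliferation marker that coats mitotic chromosomes, had signals of 483, 629.5 and 471 in control, 415.9, 317.2, 275.7 and 439.2 at 3 h, and 333.5, 237.3, 267.5 and 191.7 at 12 h. Every array after imatinib was below every control. At 12 h it fell (log2 change −1.01 ± 0.20 SE, limma adjusted p = 0.029), a call lost without control replicate 1 or 2 or 12 h replicate 2 or 3 (up to 0.13), and at 3 h the log2 change was −0.54 ± 0.20 (SE; limma adjusted p = 0.204). Top2a, the topoisomerase that untangles chromosomes, had signals of 351.6, 526 and 403.8 in control, 341.2, 200.8, 168.2 and 388.2 at 3 h, and 373, 213.5, 151.3 and 126.4 at 12 h. Its mean change at 12 h was close to that of Mki67 (log2 change −1.03), but 12 h replicate 1 lay within the controls and the error was larger (0.34 SE, limma adjusted p = 0.164). Cdca3, which triggers loss of the mitosis inhibitor Wee1, had a log2 change of −0.51 ± 0.22 (SE) at 12 h.

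**Figure D3:**
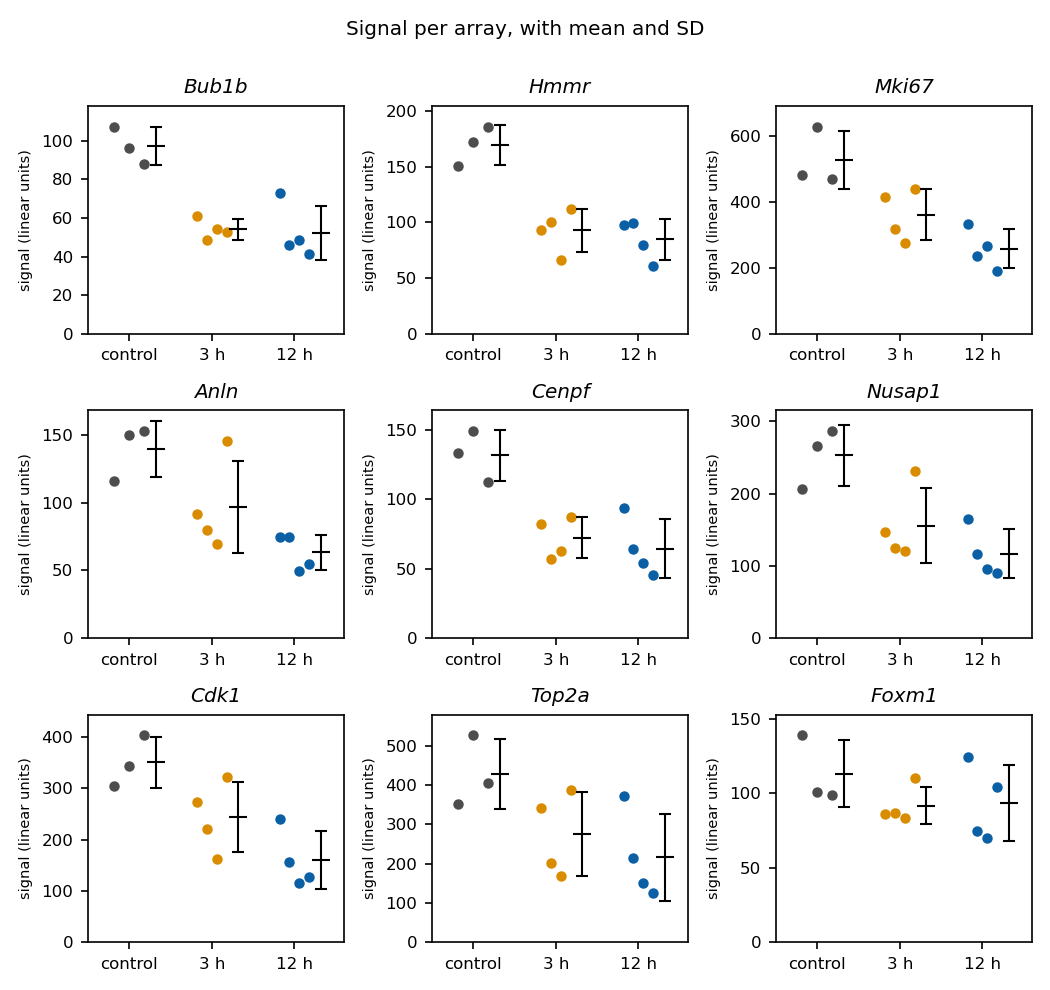
Signal in linear array units on each array (points, grouped as control, 3 h and 12 h) with the mean and SD beside them, for the 7 members that fell at 12 h and for Top2a and Foxm1. Bub1b, Hmmr, Mki67 and Cenpf have every array after imatinib below every control, while Top2a and Foxm1 overlap with control at both times.

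The same arrays held the highest and lowest values of most members within a group. At 3 h, replicate 4 was the highest of its group for 29 of 35 members (82.9%, against 22.4% of all genes), and replicate 3 was the lowest for 27 (77.1%, against 24.6%). At 12 h, replicate 1 was the highest for 32 (91.4%, against 25.7%) and replicate 4 the lowest for 25 (71.4%, against 27.7%). Other cell cycle genes had this order too. Of 36 S phase genes, 28 were highest on 12 h replicate 1 and 27 lowest on 12 h replicate 4. At 3 h, 18 of them were highest on replicate 4 and 17 on replicate 1, while 17 were lowest on replicate 3 and 14 on replicate 2. The median difference of the members from the control mean was −0.09 (log2) on 3 h replicate 4 and −0.22 on 12 h replicate 1. On the other arrays it was −0.29, −0.63 and −0.80 at 3 h and −0.67, −0.89 and −1.02 at 12 h. On 3 h replicate 4, 13 members were below all controls and 7 above all controls. On each of 12 h replicates 2, 3 and 4, 34 of 35 members were below all controls. Over the 11 arrays, 12 h replicate 4 held the lowest value of 22 members. No share over all genes was counted for values beyond all controls on single arrays, or lowest of the 11 arrays. These counts thus have no background to be read against.

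The spread between arrays of a group was compared next. The median SD of a member within a group (log2) was 0.18 in control, 0.34 at 3 h and 0.33 at 12 h. For the 10868 genes at least as bright as the dimmest member it was 0.15, 0.14 and 0.17. Control replicate 1 was the lowest control for 25 of 35 members (71.4%, against 30% of all genes), with a median difference of −0.15 from the control mean.

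**Figure D4:**
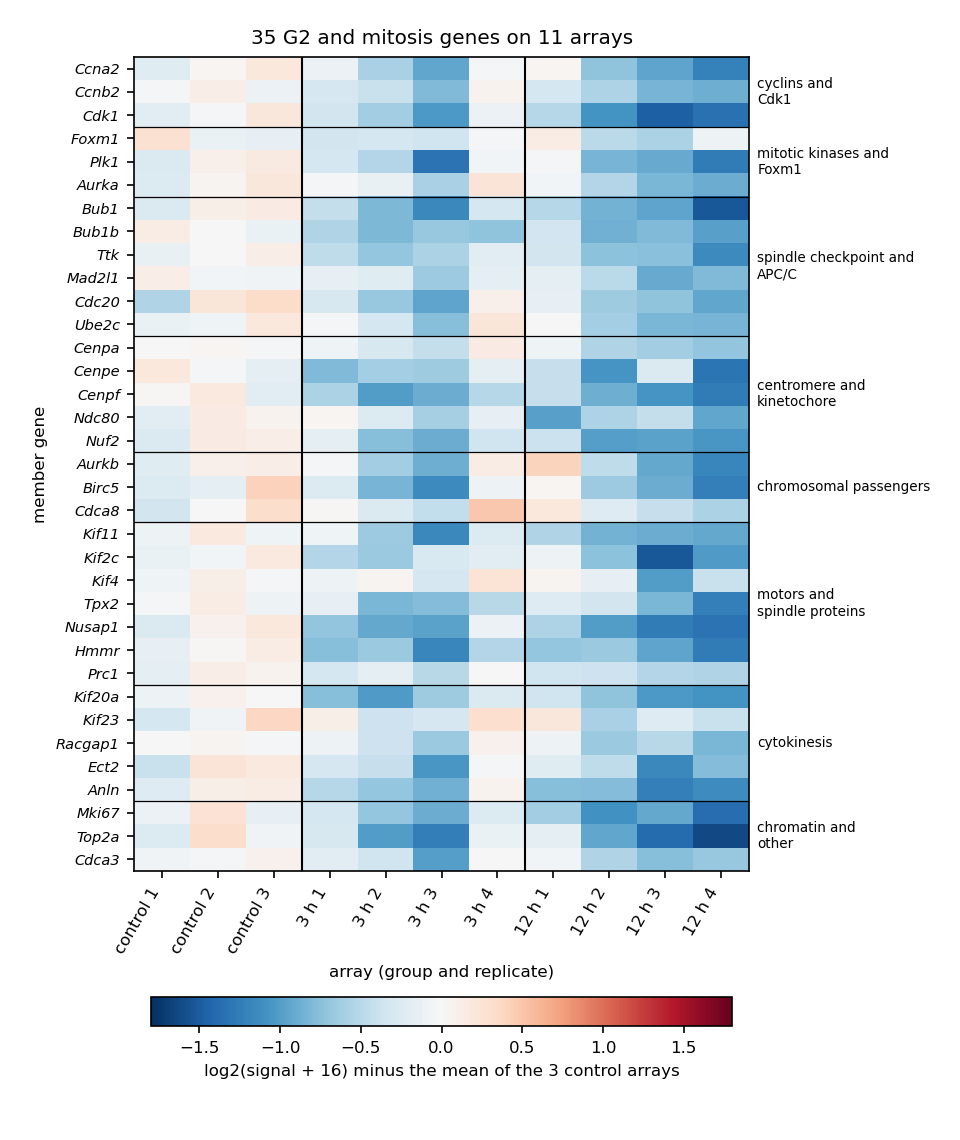
Level of each of the 35 members (rows, by role) on each of the 11 arrays (columns), as log2(signal + 16) minus the mean of the 3 control arrays, with blue for lower and red for higher. The columns of 3 h replicate 4 and 12 h replicate 1 are pale beside the other arrays of their groups, whose medians lie between −0.29 and −1.02.

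Between 12 h and 3 h no member passed the limma test in either direction (2.08% of all genes were lower, 1.99% higher and 4.07% either), and 4 had an unadjusted p under 0.05 and were lower (8.36% of all genes). These 4 were Ndc80 (log2 change −0.48 ± 0.16 SE), Mki67 (−0.47 ± 0.18 SE), Cdk1 (−0.57 ± 0.23 SE) and Anln (−0.48 ± 0.19 SE). The median log2 change was −0.26 against 0.01 for all genes, and 34 of 35 members were below 0 (47.2% of all genes). Over the 22 alternative settings, 23 of 769 values were above 0. They came from Aurkb, Birc5, Bub1b, Cdc20, Cdca3, Foxm1, Hmmr, Kif20a and Tpx2. No member had 12 h arrays all below the 3 h arrays (5.26% of all genes did) or all above them (6.3%). For Bub1b the 95% confidence interval of the 12 h against 3 h difference was −0.35 to 0.23 and for Hmmr −0.46 to 0.24.

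Other genes of the same processes were examined through lists of their own. Unadjusted counts for these lists take either direction, and by that rule 15% of all genes passed at 3 h and 15.8% at 12 h. Of all genes, 1.1% were called lower and 1.43% higher at 3 h, and 0.846% and 0.786% at 12 h. Of 60 further G2 and mitosis genes, Aspm (log2 change −0.82 ± 0.18 SE), a spindle pole protein, fell at 3 h. At 12 h Aspm (−0.98 ± 0.18 SE) and Sgo2a (−0.73 ± 0.12 SE), a protector of centromeric cohesion, fell, and none of the 60 rose at either time. The median of this list was −0.17 at 3 h and −0.37 at 12 h, and 56 of 60 were below 0 at 12 h (51.4% of all genes were). Of 17 condensin and cohesin genes, which shape and hold chromosomes, Smc4 fell at 12 h (−0.57 ± 0.11 SE) and none passed at 3 h, where 3 had an unadjusted limma p under 0.05. None of 16 core APC/C genes and regulators passed the test against control (limma, 1 with an unadjusted p under 0.05 at each time), and their medians were −0.01 and −0.02. None of 36 S phase genes, which copy the DNA before G2, passed it either (limma, 5 at 3 h and 7 at 12 h with an unadjusted p under 0.05). Their medians were −0.06 at 3 h and −0.22 at 12 h. The difference between these medians and those of the mitotic members was not tested.

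Of 23 DREAM, MuvB and E2F genes, whose products bind cell cycle promoters, Rbl2, which encodes the p130 subunit of DREAM, fell at 3 h (−0.45 ± 0.10 SE). None passed at 12 h (limma, 4 with an unadjusted p under 0.05, against 15.8% of all genes). Of 17 Cdk inhibitors and p53 targets, Cdkn1b, the inhibitor p27, fell at 3 h (−0.74 ± 0.14 SE) and 12 h (−0.71 ± 0.14 SE). The antiproliferative gene Btg2 fell at 12 h (−0.63 ± 0.14 SE), and none of the 17 rose. Of 18 crypt stem cell and Wnt target genes, Myc rose (0.89 ± 0.17 SE) and Tnfrsf19 fell (−0.64 ± 0.12 SE) at 3 h. None passed at 12 h (limma, 1 with an unadjusted p under 0.05), where the median was 0.23.

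**Figure D5:**
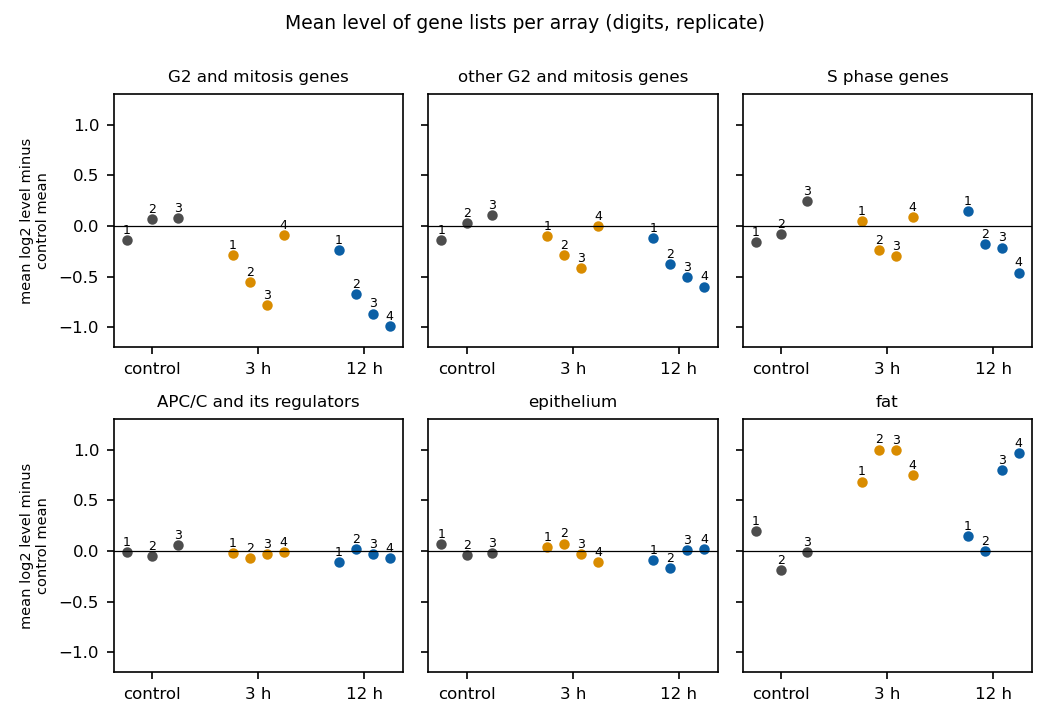
Mean log2(signal + 16) of 6 gene lists on each array, minus the mean of the 3 control arrays, with digits for the replicate. Both G2 and mitosis lists and the S phase list are lowest on replicate 3 within the 3 h group and on replicate 4 within the 12 h group. The fat list is above all controls on the 4 arrays at 3 h and on 12 h replicates 3 and 4.

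Levels of other cell types were set beside these changes. Of all genes, 1.1% were called lower and 1.43% higher at 3 h, and 0.846% and 0.786% at 12 h. The 15 epithelial markers had mean log2 levels of 11.52 to 11.63 in control, 11.45 to 11.64 at 3 h and 11.39 to 11.59 at 12 h, and of them the intestinal transcription factor Cdx2 rose at 3 h (0.75 ± 0.10 SE). Of 8 fat markers, Pparg and Fabp4 rose at 3 h and Fabp4 at 12 h. Their summed signal was 1922 to 2445 in control, 3850 to 5171 at 3 h and 2077 to 4877 at 12 h. The mean fat level was 7.17 to 7.55 in control. On 3 h replicates 1 to 4 it was 8.04, 8.35, 8.35 and 8.10. On 12 h replicates 1 to 4 it was 7.50, 7.35, 8.15 and 8.32. In the same order, the median difference of the mitotic members from the control mean was −0.29, −0.63, −0.80 and −0.09 at 3 h. At 12 h it was −0.22, −0.67, −0.89 and −1.02. Of 12 fibroblast and matrix markers 6 fell at 12 h, with a summed signal of 11923 to 15319 in control and 8209 to 9038 at 12 h. The signals of 9 posterior Hox genes, distal colon markers, summed to 1719 to 2250 in control, 808 to 1220 at 3 h and 1647 to 1939 at 12 h, with 4 falls at 3 h and none at 12 h.

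Of 12 markers of B and germinal centre cells, which also divide, none passed the test against control (limma, 1 at 3 h and 4 at 12 h with an unadjusted p under 0.05). In either direction, 15% of all genes at 3 h and 15.8% at 12 h had such an unadjusted p. Their summed signal was 266 to 335 in control, 224 to 290 at 3 h and 179 to 347 at 12 h. The 13 T and NK cell markers summed to 217 to 251, 241 to 416 and 268 to 363, also with none past the test (limma, 2 with an unadjusted p under 0.05 at each time). Of 10 macrophage markers Cx3cr1 fell at 3 h and Csf1r at 12 h, with a summed signal of 2564 to 3628, 2096 to 2774 and 2212 to 2412. None of 10 smooth muscle markers passed the test against control (limma, 1 at 3 h and 7 at 12 h with an unadjusted p under 0.05), and they summed to 21977 to 26295, 21947 to 31146 and 14979 to 23905. Among the markers of all these lists, Mef2b, Lep, Cd8b1, Cd247, Trat1, Hoxc10 and Hoxd12 stayed under the offset on every array.

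The 5 arrays with pancreatic acinar transcripts had mean log2 levels of 11.21 to 13.19 over 10 markers against 5.36 to 7.82 on the others. Without these 5 arrays, which left 12 h replicate 2 alone in its group and assumed to vary like the others, the medians were −0.43 at 3 h and −0.77 at 12 h, and no member was called at either time (0.44% and 0.044% of all genes were). Polyadenylated control RNA added during labelling had mean log2 levels of 7.18 to 7.36 in control, 7.30 to 7.47 at 3 h and 7.62 to 8.49 at 12 h. The ratio of 3′ to 5′ probe sets, a sign of RNA quality, was 0.762 to 0.908 for Gapdh over all arrays. The part of these cell types, of tissue region and of the added RNA in the mitotic changes was not tested.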

How the data were processed

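The authors deposited 1 linear intensity per probe set for 45101 probe sets on 11 arrays, per the labels from Trizol-extracted total RNA with a biotin label. In the values, each array's mean after trimming 2% at each end was 100. The software behind them is not given in the sources used here. Symbols came from the platform annotation, updated through Entrez numbers, with 34945 probe sets of 1 symbol, 932 of several and 9160 of none. The probe set with the highest mean log2(signal + 16) stood for each of 18193 genes. Groups were compared in 1 limma fit (version 3.58.1, R 4.3.3) of all 11 arrays with 3 contrasts, with Benjamini-Hochberg adjustment over all genes and calls at adjusted p under 0.05. On simulated data with the 12 h design, the fit recovered 44.8% of 67 genes changed 1.5-fold and 88.1% of 67 changed 2-fold. Of its 165 calls, 10 were genes not changed. The changed genes were drawn from brighter genes and each gene varied on its own, whereas most members were highest or lowest on the same arrays. The recovery may therefore differ for the members.

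Members and lists were chosen with earlier results of these data known. Every array's values are given for Mki67, Top2a, Cdk1, Foxm1 and called members. Called genes of other lists are named for the contrasts with control, except fibroblast and posterior Hox genes, which are only counted. Calls of the other lists between 12 h and 3 h are not given. Alternatives changed the offset, scaling, filter, probe set rule, variance prior, weights, arrays, block and threshold.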

Additional observations from a re-analysis of the deposited data

Results flagged for a closer look

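In 3 of the 70 groups of 4 arrays examined, 1 array stood apart from the other arrays of its group by more than the 95% critical value of Dixon's test (0.829), taken on the log2(signal + 16) scale, and chance alone gives about 5% of groups. Nuf2 was high on 12 h replicate 1, at a signal of 67.8 against 37.3 to 40.5 on the other arrays, with a gap of 0.871 of the range on that log2 scale. Mad2l1 was low on 3 h replicate 3, at 167.3 against 230.1 to 243, a gap of 0.852 of the log2 range. Foxm1 was high on 3 h replicate 4, at 110.5 against 83.8 to 87, a gap of 0.867 of the log2 range. These are arrays on which most members were the highest or the lowest of their group.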

How the results depend on the processing

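The medians of the members kept their sign at both times against control under every alternative run, from −0.58 to −0.29 at 3 h and from −0.88 to −0.58 at 12 h when 1 array was left out, and −0.14 to −0.40 for 12 h against 3 h. The count of calls did not. Leaving out 1 array gave 0 to 3 calls at 3 h and 0 to 13 at 12 h. Over those fits 0.885% to 2.86% of all genes were called at 3 h and 0.352% to 2.5% at 12 h. An offset of 1 gave 0 calls at both times, and the mean of all probe sets 0 and 3. At 3 h, 1.26% and 2.04% of all genes were called in these fits. An adjusted p under 0.10 gave 4 and 13, and the share of all genes at that threshold was not counted. Without the 5 arrays with high pancreatic transcripts the medians were −0.43 at 3 h and −0.77 at 12 h. At 12 h the filter on low signals, which tests fewer genes, gave 12 calls, a trended and robust variance prior 13, and a fit of those 2 groups alone 0. The share of all genes called at 12 h moved too, from 1.63% to 5.47%, 2.95% and 0.341% in these fits, and to 0.445% with an offset of 1 and 1.34% with the mean of probe sets. Other causes of these shifts were not tested. With the replicate number as a block, 1 member was called at 3 h and 1 at 12 h (Bub1b in each). Of all genes, 1.52% at 3 h and 1.01% at 12 h were called in that fit, in either direction. Deviations of same-numbered arrays correlated at −0.21 to 0.31, against −0.40 to 0.31 for other pairs, so the numbers were not taken to pair the samples. No call arose between 12 h and 3 h. Of the values for single members, 98 lost and 26 gained a call, 2183 did neither, and no called value changed sign. Only the calls of the main fit, 2 at 3 h and 7 at 12 h, could be lost. Most of the 2183 belong to members not called in the main fit, so the 98 losses are not a share of them. Signals near the offset, such as Ndc80 at 12 h, limit the folds that can be measured.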

Other observations

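Of the 35 measured members, 23 had further, dimmer probe sets, 42 in all. Of these, 34 had a log2 change below 0 at 3 h and 36 at 12 h. The 14 with a mean signal of 32 or more were below 0 at both times, with medians of −0.40 and −0.61. Of the 28 under that signal, 20 and 22 were below 0. Foxm1, which encodes a transcription factor of G2, differed between its probe sets. At 12 h its brightest probe set had a log2 change of −0.25, and the dimmer ones −0.41, −0.90 and −0.07. The one at −0.90 had signals of 31.8, 36.4 and 51.9 in control and 9.7, 17.9, 11.1 and 16.8 at 12 h. Its groups did not overlap, and its 12 h signals were near the offset. For the other dimmer Foxm1 probe sets, not every 12 h array lay below every control. The second Nusap1 probe set, at a mean signal of 7.12, had log2 changes of 0.09 and 0.10.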
